A study of Manihot esculenta with 32 samples.

Results

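The embryogenic cultures of cassava (Manihot esculenta), cultivar TME 204, were compared with the organs of the whole plant. The cultures were chosen by their titles and comprise 6 of the 32 RNA-seq libraries, 3 of organized embryogenic structures (OES) and 3 of friable embryogenic callus (FEC). The other 26 libraries come from 9 plant tissues: leaf, midvein, petiole, lateral bud, stem, fibrous root, shoot apical meristem (SAM) and root apical meristem (RAM) with 3 libraries each, and storage root with 2. Per the labels, the OES were 4 weeks and the FEC 7 weeks old, whereas the methods of the study give a shorter time for FEC. The plants were 3 months old and stood in a glasshouse. Both cultures were grown on sucrose and the synthetic auxin picloram, OES on DKW/Juglans salts and FEC on Gresshoff and Doy medium, so culture conditions, age and tissue cannot be told apart. Each SAM or RAM library pooled 6 meristems and was prepared with another RNA kit than the rest. These libraries also had less input RNA, fragmentation enzyme and random primer. All libraries shared a lane.

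In somatic embryogenesis, cells of a vegetative tissue form embryos without fertilization, usually under auxin. OES are compact structures of such embryos that arise on the explant. FEC is a loose mass of small proliferating embryogenic units derived from OES, and it is the tissue from which transgenic cassava is commonly regenerated. Zygotic embryos of Arabidopsis use WUSCHEL-related homeobox (WOX) genes to pattern their first cell lineages. They use nuclear factor Y subunits of the LEAFY COTYLEDON1 type to maintain embryonic identity. Auxin induces genes of the Aux/IAA and GH3 families.

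Depth was higher in the cultures than in most plant libraries. Fragments on named loci ranged from 12920943 to 24123487 in the 6 culture libraries and from 4175114 to 15212032 in the 26 plant libraries, and the part of depth in the results was not tested. With each tissue type weighed once, the cultures had 21268 loci at or above 1 FPKM (fragments per kilobase of transcript, scaled to the size of the library) and the plant tissues 21526, with p = 0.62 in an exact two-sided permutation test over the 11 tissue-type means. The 10 most abundant loci took 2.03% of the fragments in the cultures and 3.99% in the plant tissues, with p = 0.036 in the same exact permutation test, the smallest p it can give with 2 types against 9. The culture libraries lay between 1.68% and 2.25% and the plant libraries between 2.19% and 8.39%, so the ranges met at their edges. Without lateral bud 2 the p rose to 0.073.

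A locus was counted as shifted where OES and FEC each differed in the same direction from each of the 9 plant tissues. The largest of the 18 p-values from edgeR's quasi-likelihood test stood for the locus and was adjusted by Benjamini-Hochberg over all 27855 loci tested. By this rule 435 loci were higher in both cultures (1.56% of the loci tested) and 332 were lower (1.19%). At the 435 higher loci the median level was 27.4 FPKM in OES, 38.0 FPKM in FEC and 6.73 FPKM in the highest plant tissue. At the 332 lower loci it was 1.08 FPKM in OES, 0.561 FPKM in FEC and 6.56 FPKM in the lowest plant tissue. All 6 culture libraries lay above all 26 plant libraries at 430 of the 435 loci, and below them at 314 of the 332, counts that the selection itself favours. Over all loci tested the libraries were separate in this way at 3.31% and 2.56%. The higher loci took 4.02% to 5.96% of the fragments in the culture libraries and 0.36% to 0.962% in the plant libraries, as the rule that chose them requires.

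More than a 4-fold difference in mean FPKM to the nearest plant tissue was found at 206 of the higher loci (0.74% of the loci tested) and 182 of the lower loci (0.653%). For comparison, the mean of OES and FEC differed more than 4-fold from the mean of the 9 plant tissues at 2878 loci that were higher (10.3%) and 2722 that were lower (9.77%), at an adjusted p below 0.05 in edgeR. Of these 5600 loci, 4973 did not shift against every plant tissue. Most loci that separated the cultures from the average plant tissue were therefore at a similar or more extreme level in at least 1 plant tissue, or could not be told from it. Counted without SAM and RAM, the loci shifted against the remaining 7 tissues were 936 higher and 993 lower. They included all 435 higher and all 332 lower loci. With fewer tissues to pass, the rule itself favours more calls and the keeping of earlier ones. No other pair of tissues was left out for comparison. Scaled by library totals alone, which moved the median log2 fold change of all loci from 0.02 to 0.20, 569 loci were higher and 219 lower, or 72.2% higher in place of 56.7%.

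At the shifted loci the plant tissue nearest to the cultures was SAM or RAM more often than any other. At the 435 higher loci the highest plant mean was in SAM at 173 loci (39.8%), in RAM at 63 (14.5%) and in fibrous root at 46, and in midvein at 8. At the 332 lower loci the lowest plant mean was in RAM at 80 loci (24.1%) and in SAM at 59 (17.8%), followed by storage root at 51 and lateral bud at 44. Petiole was the lowest at 1 locus, midvein at 6 and stem at 7. Over all loci tested, the highest and lowest plant tissues were not counted. A closeness particular to SAM or RAM is therefore not read from these counts. They rest on tissue-type means without a test, and the different RNA kit and library preparation of SAM and RAM go with them. A single library can set such a mean. Manes.08G121800 read 12.1 FPKM in SAM 3 against 0.249 and 0.244 FPKM in SAM 1 and SAM 2. How many of the 173 loci rest on SAM 3 alone was not counted.

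**Figure D1:**
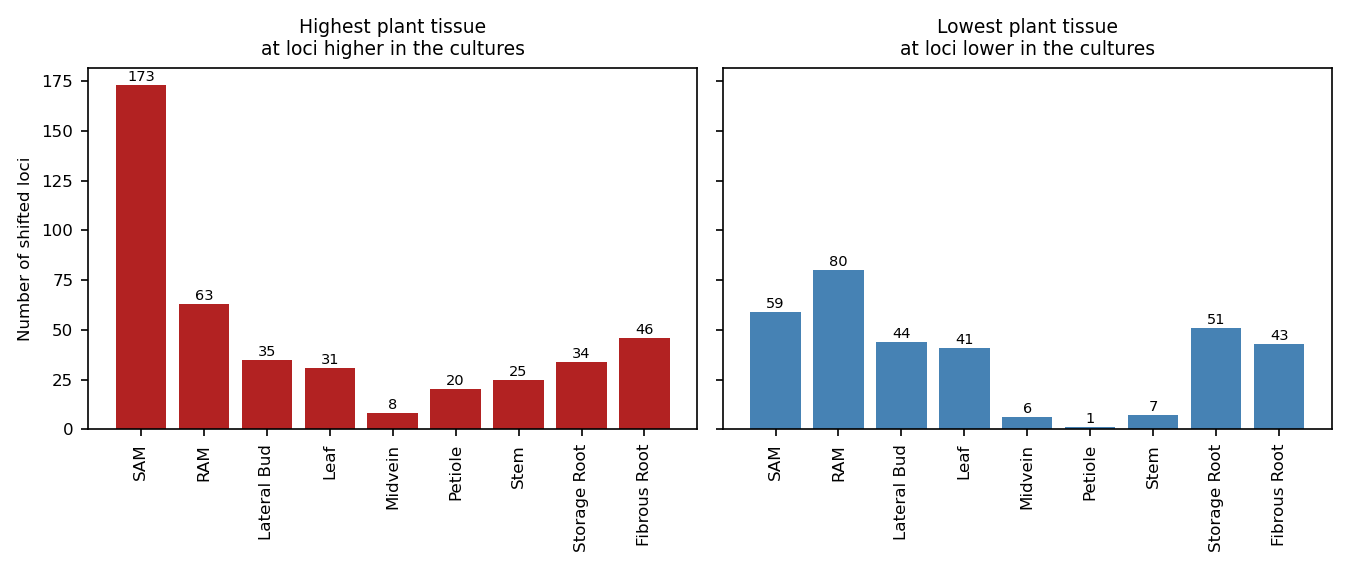
Number of shifted loci (vertical axis) by the plant tissue whose mean FPKM came nearest to the cultures (horizontal axis), at left the highest tissue for the 435 loci higher in the cultures and at right the lowest tissue for the 332 lower loci. SAM is the tallest bar at left with 173 loci and RAM the tallest at right with 80.

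The leading higher loci included WOX2 and WOX8, both known from the early embryo. Leading loci, higher or lower, were taken only from those whose culture and plant libraries did not overlap. Their separation is therefore a condition of the choice and not a result. Gene names are those of the cassava genome, in which the digits before the G give the chromosome, and annotations are the study's, from similarity to Arabidopsis. WOX2 (Manes.04G033600), which in Arabidopsis marks the apical lineage of the early embryo, read 43.3, 41.8 and 33.1 FPKM in the OES libraries and 256, 315 and 238 FPKM in the FEC libraries. In the plant libraries it lay between 0 and 1.97 FPKM with a median of 0.124 FPKM. The groups were far apart, with SAM as the highest plant tissue, where the contrast of largest p was a log2 fold change of 4.52 ± 0.33 (SE) for OES (edgeR, adjusted p = 1.7e-09). WOX8 (Manes.17G051300), which marks the basal lineage in Arabidopsis, read 23.5, 28.6 and 18.6 FPKM in OES and 241, 260 and 228 FPKM in FEC. Its plant libraries lay between 0 and 3.37 FPKM with a median of 0.106 FPKM. They were highest in fibrous root, from which OES differed by a log2 fold change of 3.84 ± 0.44 (SE; edgeR, adjusted p = 1.2e-06).

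Nuclear factor Y, subunit B6 (Manes.08G068800), a subunit of the LEAFY COTYLEDON1 type that in Arabidopsis acts in developing seeds, followed the same order. It read 60.2, 54.9 and 95.5 FPKM in OES and 248, 455 and 284 FPKM in FEC. The median of the plant libraries was 0 FPKM and the highest, from SAM, 1.94 FPKM, and 17 of the 26 were at 0. No plant library held more than 9 of its fragments, whereas a culture library held up to 6523 (edgeR, adjusted p = 1.1e-07). The annotated somatic embryogenesis receptor-like kinase 1 (Manes.03G182600), a receptor known from embryogenic cells of Arabidopsis, did not share this pattern. It read 0.544 to 0.972 FPKM in OES and 0.462 to 0.692 FPKM in FEC, against 0.787 to 24.9 FPKM in the plant libraries with a median of 5.33 FPKM. The cultures lay at the low end of the plant range and overlapped with it. Its mean contrast was a log2 fold change of -2.79 ± 0.25 (SE; edgeR, adjusted p = 2.3e-10), and it was not shifted against every tissue. The list of embryo regulators whose annotation could be used held 3 loci, WOX2, WOX8 and this kinase, of which 2 were shifted higher and none lower. Nuclear factor Y, subunit B6 was not in that list.

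Auxin genes were led by a locus annotated as indole-3-acetic acid inducible 30 (Manes.05G008300), of the Aux/IAA family of auxin-induced repressors. It read 601, 570 and 529 FPKM in OES and 404, 298 and 478 FPKM in FEC, against 0.2 to 20.1 FPKM in the plant libraries with a median of 4.94 FPKM. Both cultures were similar here, and the contrast of largest p, FEC against SAM, was a log2 fold change of 5.13 ± 0.34 (SE; edgeR, adjusted p = 1.2e-10). A GH3 gene (Manes.03G119800), of a family of enzymes that join auxin or jasmonate to amino acids, was higher in OES (158, 165 and 149 FPKM) than in FEC (31.4, 18.2 and 31.6 FPKM). All of these exceeded the plant libraries, whose highest reading was 12.3 FPKM and whose median was 2.38 FPKM. FEC differed least from fibrous root, by a log2 fold change of 1.69 ± 0.35 (SE; edgeR, adjusted p = 0.0036), and the call was lost with limma on log2(FPKM + 0.1), at an adjusted p of 0.18.

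**Figure D2:**
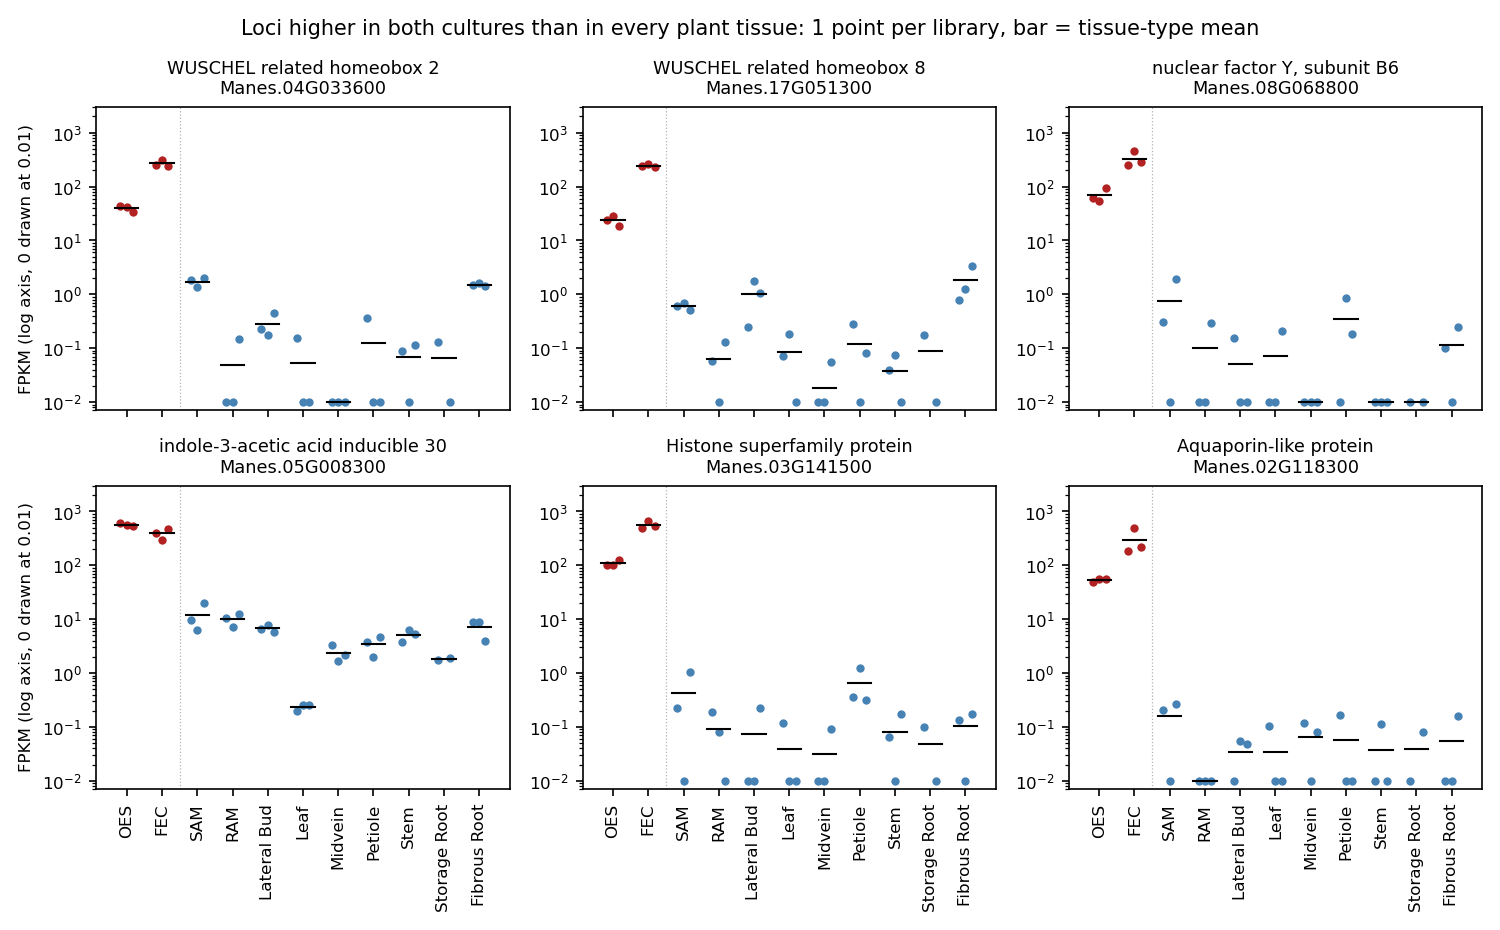
FPKM (vertical log axis, 0 drawn at 0.01) in each library, 1 point per library and a bar at the tissue-type mean, for 6 of the leading higher loci, cultures in red and plant tissues in blue. Every culture point lies above every plant point, as the choice of leading loci required. FEC exceeds OES in each panel but that of indole-3-acetic acid inducible 30.

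Wide separations were also found at a histone and at a water channel. The histone superfamily locus Manes.03G141500, of the proteins that package DNA, read 101, 101 and 125 FPKM in OES and 498, 661 and 539 FPKM in FEC. The plant libraries lay between 0 and 1.25 FPKM with a median of 0.0865 FPKM, and petiole was the highest tissue with 13 fragments in all (edgeR, adjusted p = 2.4e-10). The aquaporin-like Manes.02G118300 read 49.5, 56.9 and 55.5 FPKM in OES and 185, 484 and 222 FPKM in FEC. The plant libraries held at most 1 fragment each and 15 of the 26 held none, so it was close to undetected outside the cultures (edgeR, adjusted p = 8.8e-10). The remaining histones did not share this pattern. Among 11 histone loci tested, 1 was shifted, and at the other 10 the SAM mean was above that of both cultures.

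The other leading annotated loci concern signalling, transport and enzymes. A leucine-rich repeat transmembrane protein kinase (Manes.03G072200), of a receptor family, read 57.3 to 79.4 FPKM in OES and 132 to 150 FPKM in FEC, against at most 4.71 FPKM in a plant library. A zinc transporter 1 precursor (Manes.07G085500), of a family that takes up metal ions, read 14.2 to 25.2 FPKM in OES and 337 to 805 FPKM in FEC, against at most 1.27 FPKM. A prolyl oligopeptidase (Manes.18G007900), a serine peptidase, read 29.4 to 44.0 FPKM in OES and 185 to 313 FPKM in FEC, against at most 4.10 FPKM. The groups were separate at each of these, as the choice of leading loci required, and FEC was the higher culture. The adjusted p of the shared shift was 3.2e-07, 9e-08 and 2.6e-09 in edgeR. Cytochrome P450 94C1 (Manes.04G005600), which in Arabidopsis oxidizes a jasmonate conjugate, read 28.6 to 43.2 FPKM in OES and 67.8 to 88.7 FPKM in FEC, against at most 4.84 FPKM in a plant library from stem. Its adjusted p was 0.0071 in edgeR and 0.24 with DESeq2. The leading loci without an annotation were Manes.08G121800, with means of 512 FPKM in OES and 1268 FPKM in FEC, and Manes.03G210400, with 240.0 and 761 FPKM. Their highest plant tissue was SAM, at 4.2 and 2.61 FPKM. SAM 3 alone held 41 of the 43 SAM fragments of Manes.08G121800, all 35 of Manes.03G210400 and 9 of the 10 of the nuclear factor Y gene, which had up to 17333, 14294 and 6523 fragments in a culture library.

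Further members of the lists were shifted by less. Chromatin remodeling 1 (Manes.01G134600), a remodeler that in Arabidopsis maintains DNA methylation, read 253, 319 and 244 FPKM in OES and 198, 150 and 194 FPKM in FEC. The plant libraries spanned 0.536 to 115 FPKM with a median of 8.44 FPKM, and the highest tissue was RAM at 76.7 FPKM. FEC exceeded RAM by a log2 fold change of 1.26 ± 0.26 (SE; edgeR, adjusted p = 0.0035). Of the 4 loci of the chromatin list tested, only this 1 was shifted, and the other 3 did not pass in the mean contrast. Glutathione S-transferase tau 7 (Manes.07G029200), a detoxifying enzyme, read 132 to 173 FPKM in OES and 230 to 372 FPKM in FEC, against at most 65.9 FPKM in a plant library from fibrous root (edgeR, adjusted p = 0.011). That call was lost with DESeq2 and with limma on log2(FPKM + 0.1), and without fibrous root 1, fibrous root 2 or OES 3. Cytochrome P450 87A2 (Manes.02G026800) read 7.51 to 14.1 FPKM in the cultures and at most 3 FPKM in the plant libraries (edgeR, adjusted p = 0.021). Its call was lost with limma on log2(FPKM + 0.1), and when any library of OES or RAM, or FEC 1, was left out.

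Among the 16 lower loci named, the OES mean was above the FEC mean at 14. The same held at 234 of all 332 lower loci and at 49.4% of the loci tested. Both loci annotated as homeobox protein 16, a leucine zipper transcription factor that in Arabidopsis acts in leaf growth, were among the 14. Manes.12G129800 read 12.3, 12.3 and 16.3 FPKM in OES and 2.39, 2.9 and 1.23 FPKM in FEC, against 30.8 to 535 FPKM in the plant libraries with a median of 153 FPKM. Manes.13G096900 read 10.6, 11.3 and 9.88 FPKM in OES and 0.866, 1.71 and 0.794 FPKM in FEC, against 21.1 to 322 FPKM with a median of 85.8 FPKM. At both loci the highest culture library lay below the lowest plant library, as the choice of leading loci required. The contrasts of largest p were OES against RAM at a log2 fold change of -2.59 ± 0.39 (SE; edgeR, adjusted p = 9.3e-05) and OES against leaf at -2.20 ± 0.37 (SE; edgeR, adjusted p = 0.00037).

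A peroxidase (Manes.02G182500), of the secreted class that oxidizes cell wall phenolics, read 12.2, 12.4 and 12.5 FPKM in OES and 2.02, 1.18 and 1.46 FPKM in FEC. The plant libraries ranged from 66.7 to 1025 FPKM with a median of 289.8 FPKM, with fibrous root the highest and storage root the lowest tissue. OES was below storage root by a log2 fold change of -2.61 ± 0.35 (SE; edgeR, adjusted p = 1.5e-05). An aspartyl protease (Manes.04G158400) read 10.7, 9.58 and 11.7 FPKM in OES and 0.598, 0.357 and 0.395 FPKM in FEC, against 56 to 677 FPKM in the plant libraries with a median of 228 FPKM (edgeR, adjusted p = 0.00037). Beta-6 tubulin (Manes.01G061400), a subunit of microtubules, read 2.76, 2.38 and 2.41 FPKM in OES and 0.726, 0.439 and 0.331 FPKM in FEC. Its plant libraries ranged from 10.5 to 480.2 FPKM with a median of 174 FPKM (edgeR, adjusted p = 0.00037). In each of these genes the plant tissues themselves differed widely, and the cultures lay below the lowest of them, as their choice required.

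The other leading lower loci were of various kinds. A Dof-type zinc finger gene (Manes.17G047300), of a plant-specific factor family, read 2.56 to 3.54 FPKM in OES and 0.0479 to 0.867 FPKM in FEC, against 11.3 to 56 FPKM in the plant libraries (edgeR, adjusted p = 0.0004). A brassinosteroid-responsive RING-H2 gene (Manes.01G058900), known in Arabidopsis from its response to that steroid hormone, read 2.04 to 4.54 FPKM in the cultures and 9.21 to 149 FPKM in the plant libraries (edgeR, adjusted p = 0.018). Its call was lost with library totals and without leaf 1, OES 1 or OES 2. A DUF581 gene (Manes.03G042600) read 0.769 to 4.87 FPKM in the cultures and 6.03 to 1420.4 FPKM in the plant libraries (edgeR, adjusted p = 0.0033). By tissue mean SAM was the lowest plant tissue at 18.6 FPKM and storage root the highest at 1222 FPKM, while the lowest single library was RAM 1. An O-fucosyltransferase gene (Manes.13G099700) read 14.1 to 22.8 FPKM in OES and 2.29 to 3.83 FPKM in FEC, against 31.2 to 433 FPKM (edgeR, adjusted p = 0.00024). The leading loci without an annotation were Manes.14G116200, at most 2.1 FPKM in a culture and at least 37.4 FPKM in a plant library, and Manes.01G094900, at most 0.454 and at least 10.7 FPKM. With at most 23 and 4 fragments in a culture library, a difference between OES and FEC was not detectable at either.

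**Figure D3:**
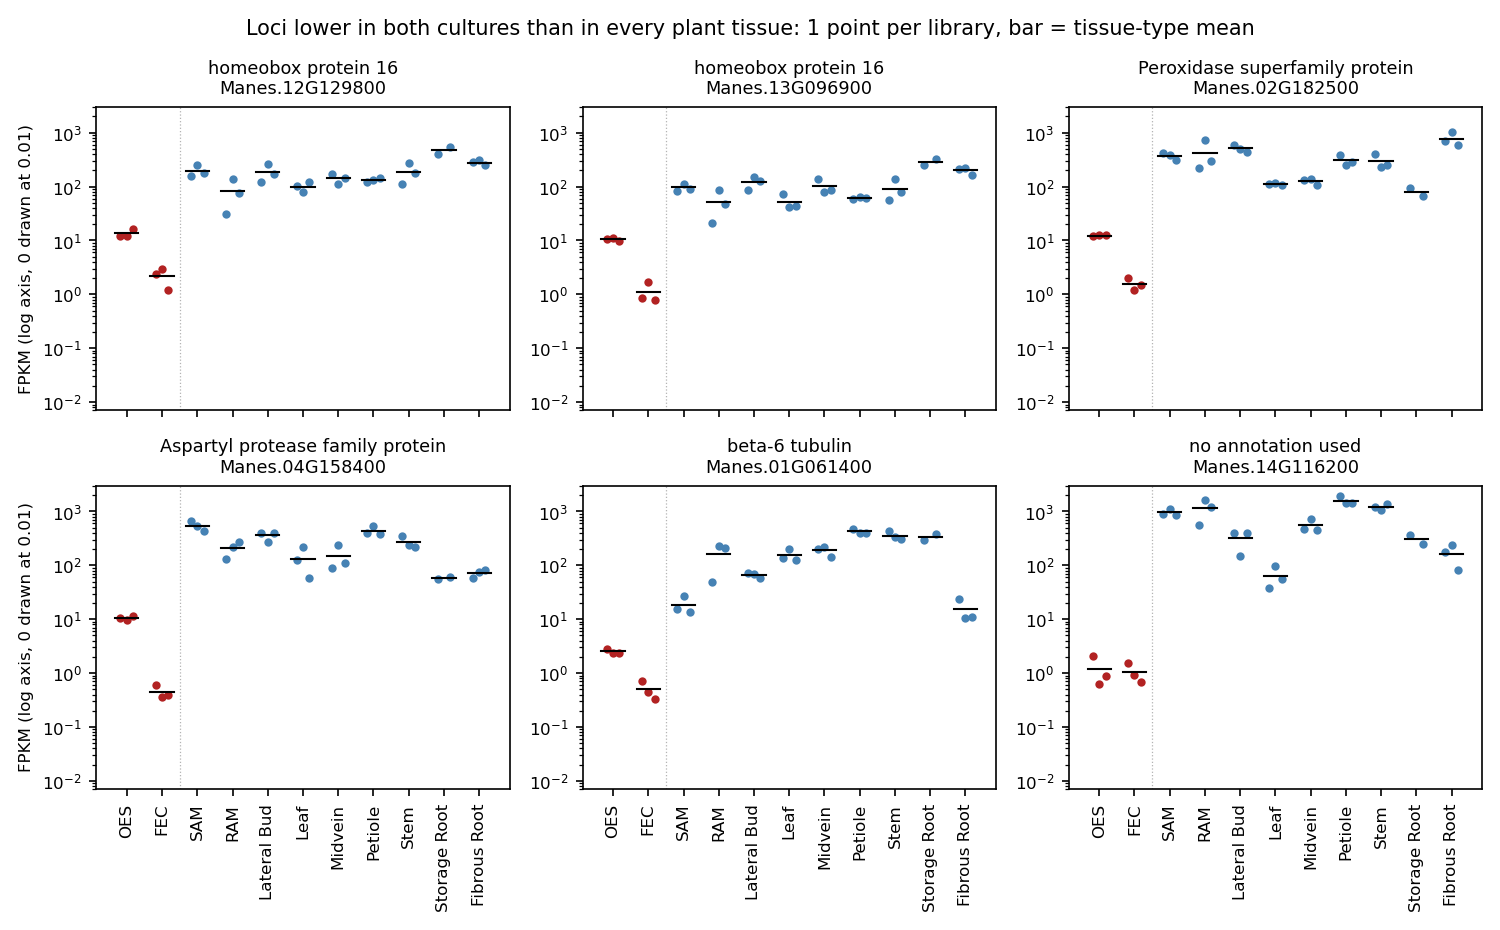
FPKM (vertical log axis, 0 drawn at 0.01) in each library, 1 point per library and a bar at the tissue-type mean, for 6 of the leading lower loci, cultures in red and plant tissues in blue. Every culture point lies below every plant point, as the choice of leading loci required. FEC lies below OES in each panel but that of Manes.14G116200.

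A pair of genes for water channels of the vacuole membrane were shifted lower. The tonoplast intrinsic protein 4;1 gene (Manes.03G062300), which the files list on 2 loci so that its reads may be split, and of which 1 locus was shifted, read 5.31 to 14.6 FPKM in OES and 2.37 to 4.85 FPKM in FEC, against 30.9 to 1280 FPKM in the plant libraries (edgeR, adjusted p = 0.014). Tonoplast intrinsic protein 1;3 (Manes.10G035000) read 0.668 to 1.26 FPKM in OES and 0.263 to 0.818 FPKM in FEC, against 3.09 to 541 FPKM (edgeR, adjusted p = 0.0073). The call of the latter was lost without storage root 1, and that of the former with library totals and without OES 1, OES 2 or leaf 2. Over the 23 aquaporin loci tested, 1 was shifted higher and 2 lower, and in the mean contrast 2 were higher and 13 lower, with a median log2 fold change of -2.89. DESeq2 and limma on log2(FPKM + 0.1) each called 17 lower. The summed level of the list was 311 to 696 FPKM in the culture libraries and 834 to 12972 FPKM in the plant libraries. However, FPKM over all named loci summed to 721761 to 855416 in the culture libraries and 816361 to 1665591 in the plant libraries. Sums are thus not on 1 scale, and the gap from 696 to 834 FPKM is not read as a separation. In bulk tissue, fewer cells of a type and less RNA per cell cannot be told apart.

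Gene lists were matched by words to the annotations, which were at hand only for 4759 of the loci tested. Those annotations came from the study's own lists of genes that differ between leaf and fibrous root, OES and FEC or storage and fibrous root, so annotated loci are a selected set. Of them, 1.53% were shifted higher and 1.22% lower, while in the mean contrast 20.2% were higher and 17% lower, with a median log2 fold change of -0.09 against 0.02 over all loci. Lists were described by counts and medians and were not tested.

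Photosynthesis genes were mostly lower in the mean contrast. Of 31 loci for photosystem and antenna proteins, plastocyanin and the small Rubisco subunit, 23 were lower in the mean contrast, 1 was higher and 7 did not pass, with a median log2 fold change of -4.22. None was shifted against every plant tissue. The summed level was 474 to 602 FPKM in OES and 157 to 183 FPKM in FEC, whereas it was 127 to 189 FPKM in RAM and 162 to 217 FPKM in fibrous root. FEC thus overlapped with the root tips and fibrous roots while OES lay above them, and the highest plant library, a leaf, reached 101940 FPKM. These markers of green tissue moved with the mean contrast, and their part in the other results was not tested. The small Rubisco subunit Manes.05G137400 shows the range, at 1.53 to 3.2 FPKM in the cultures and 1.67 to 21222 FPKM in the plant libraries. A chlorophyll a-b binding gene (Manes.15G033100) was the exception, at 150, 158 and 244 FPKM in OES, 1.64 to 3.41 FPKM in FEC and up to 113 FPKM in a plant library. Both were chosen after their values were seen.

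Loci of the secondary cell wall, of flavonoid synthesis and of wall loosening also had more members lower than higher. Over all annotated loci 17% were lower and 20.2% higher, with a median of -0.09, to which the wall loosening median was near. Among 21 loci for laccases and fasciclin-like proteins of the secondary cell wall, 5 were lower in the mean contrast, 1 was higher and 15 did not pass, with a median log2 fold change of -3.86, and 5 of the 21 were at 0 FPKM in all culture libraries. The count depended on the tool, with 13 lower by DESeq2 and by limma on log2(FPKM + 0.1) and 2 lower by limma on log2(FPKM + 1). The summed level of 72.7 to 132 FPKM in the cultures overlapped with leaf (78.1 to 192 FPKM) and lateral bud (64.6 to 185 FPKM). The laccase Manes.01G164900, of the enzymes that polymerize lignin, was the shifted member. It read 0 to 0.024 FPKM in OES and 0 to 0.0513 FPKM in FEC, against 0.109 to 27.3 FPKM in the plant libraries (edgeR, adjusted p = 0.0051), and its call was lost without RAM 2 and with limma on log2(FPKM + 1). Of 9 flavonoid synthesis loci, 4 were lower and none was higher, with a median of -1.81. Of 33 expansins and xyloglucan-modifying enzymes that loosen the wall, 8 were lower and 2 higher, with a median of -0.21, and limma on log2(FPKM + 1) called 5 lower and none higher, while 5 were higher without SAM and RAM.

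Seed maturation genes had more members higher than lower. Of 13 loci for late embryogenesis abundant (LEA) proteins, dehydrins and oleosins, which protect the drying seed or coat its oil bodies, 10 were higher in the mean contrast and none was lower, with a median log2 fold change of 3.83. None was shifted against every plant tissue. RAM had the highest plant mean at 5 of them, and the summed level of 57.0 to 262 FPKM in the cultures overlapped with 109 to 161 FPKM in RAM. The oleosin Manes.05G118400 read 4.31 to 6.5 FPKM in OES and 17.5 to 28.5 FPKM in FEC, against at most 3.05 FPKM in a plant library. FEC 2 stood apart in this list. LEA 4-5 (Manes.08G044900) read 149 FPKM in FEC 2 but 15.4 and 20.2 FPKM in the other FEC libraries, and oleosin 1 (Manes.06G131000) read 11.5 FPKM there against 1.22 and 1.86 FPKM. Without FEC 2 the count of higher loci was again 10, while limma on log2(FPKM + 1) gave 4. These 3 genes were chosen after their values were seen.

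Cell cycle genes were at a summed FPKM below the meristems and above most other organs, whereas histones, also a marker of dividing cells, followed another order. The summed level of 24 cell cycle loci was 395 to 428 FPKM in the culture libraries, 1099 to 1269 FPKM in SAM and 547 to 737 FPKM in RAM. FPKM totals differed between libraries, so the smaller step to RAM depends on that scale. Lateral bud libraries ranged from 114 to 608 FPKM around the cultures, and those of the other 6 tissues from 35.0 to 243 FPKM below them. Of the 23 loci tested, 5 were higher in the mean contrast, 1 was lower and none was shifted against every tissue. Without SAM and RAM 11 were higher, with library totals alone 9, and with limma on log2(FPKM + 1) 1. Cyclin A1;1 (Manes.02G166800), of the cyclins that drive mitosis, had means of 10.4 FPKM in OES and 10.2 FPKM in FEC against 38.6 FPKM in SAM. This gene was chosen after its values were seen. The histone list had a mean summed level of 1070 FPKM in OES and 1456 FPKM in FEC. Storage root (5174 FPKM), SAM (4113 FPKM), lateral bud (2475 FPKM) and RAM (2029 FPKM) lay above both cultures. Leaf (1117 FPKM) lay between them, and the remaining plant tissues lay below both.

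Homeobox genes of meristems did not move as a group. Of 12 WOX and KNOTTED-like loci, 2 were shifted, WOX2 and WOX8, which are also counted among the embryo regulators, and in the mean contrast 6 were higher and 2 lower, with a median log2 fold change of 1.19. Both KNOTTED-like genes that passed were lower. The annotated WOX11 loci, of a gene that in Arabidopsis acts in root founder cells, were higher in OES than in FEC. Manes.08G151900 read 28.8 to 34.7 FPKM in OES and 6.27 to 8.22 FPKM in FEC, and Manes.09G136200 13.3 to 15 FPKM and 2.68 to 3.59 FPKM. RAM was their highest plant tissue, with library maxima of 15.9 and 8 FPKM that overlapped with FEC. These loci were chosen after their values were seen. Of 42 early auxin response loci, 2 were shifted higher, and in the mean contrast 11 were higher and 3 lower with a median of 0.09, which limma on log2(FPKM + 1) turned to -0.19 with 7 higher and 2 lower. Of these 11, 6 were loci of GH3 genes and 4 of genes annotated as indole-3-acetic acid inducible 30 or 33. Among 21 auxin transporters and auxin response factors 3 were higher and 2 lower, with a median of -0.41.

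Enzyme and regulator families were mixed. Of 85 cytochromes P450, 27 were higher in the mean contrast and 10 lower, and 2 were shifted higher. DESeq2 called 18 lower, and limma on log2(FPKM + 1) called 16 higher and 5 lower and turned the median log2 fold change from 0.84 to -0.06. WRKY transcription factors, known from stress responses, had 14 of 41 higher and 2 lower, with none shifted. Without SAM and RAM 7 of them were lower, and limma on log2(FPKM + 1) called 5 higher. Glutathione S-transferases had 6 of 14 higher and 1 lower, and the tau 7 gene was the shifted member. Class III peroxidases had 9 of 28 higher and 4 lower with a median log2 fold change of 0.35, but the median turned to -0.25 with DESeq2 (9 higher, 7 lower) and to -0.29 with limma on log2(FPKM + 1) (1 higher, 4 lower) and -0.28 on log2(FPKM + 0.1) (7 higher, 5 lower). The summed level was 64.5 to 140.3 FPKM in the cultures and 143 to 2211 FPKM in the plant libraries. Since FPKM totals differed between libraries, this narrow gap is not read as a separation. Both shifted members were lower. The second of them, Manes.07G138800, was lost in 26 of the 32 fits that left out 1 library, and a CAP family pathogenesis-related gene (Manes.06G026900) in 10 of them. Both calls were also lost with library totals alone (edgeR, adjusted p = 0.09 and 0.074) and with limma at either pseudocount (adjusted p = 1). Both overlapped between the groups, since 1 plant library was at 0 for each.

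**Figure D4:**
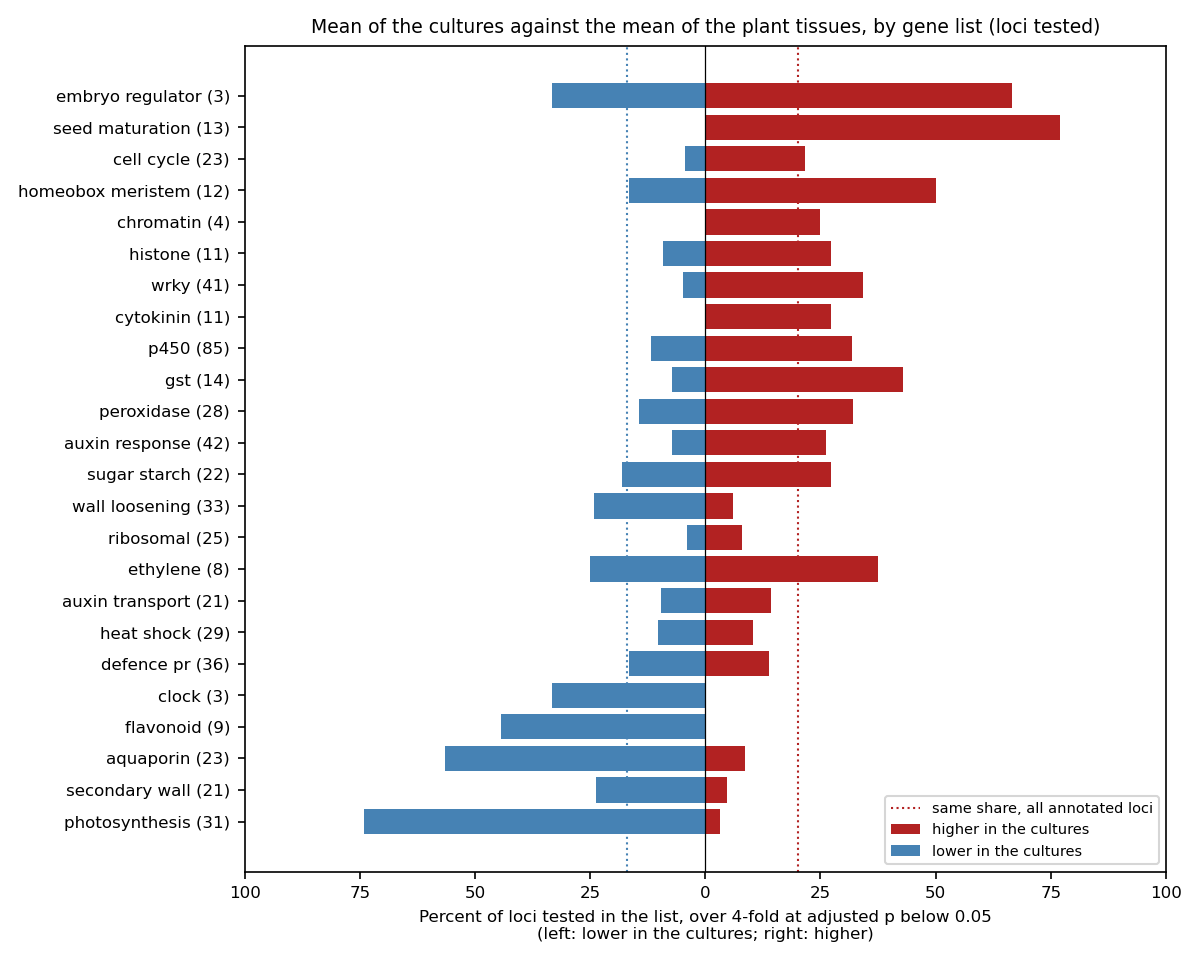
Percent of the loci tested in each gene list (number in brackets) that were more than 4-fold lower (left, blue) or higher (right, red) in the mean of the cultures than in the mean of the plant tissues at an adjusted p below 0.05, with lists ordered by their median log2 fold change. Dotted lines mark the same shares over all annotated loci, 17% lower and 20.2% higher.

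The cultures were also compared with each other. They differed more than 4-fold from each other at 62 of the 435 higher loci (14.3%) and 56 of the 332 lower loci (16.9%), which is near the 12.9% over all loci tested. Their direction was uneven. Among the higher loci FEC exceeded OES at 54 and OES exceeded FEC at 8, and among the lower loci OES exceeded FEC at 54 and FEC exceeded OES at 2. Over all loci tested OES exceeded FEC at 6.83% and FEC exceeded OES at 6.12%. Without the fold limit, the FEC mean was above the OES mean at 299 of the 435 higher loci and below it at 234 of the 332 lower loci, while over all loci tested it was above at 48.0% and below at 49.4%. Since a locus had to pass in the less extreme culture, the contrast of largest p was one of OES at 314 of the 435 higher loci (72.2%) and 242 of the 332 lower loci (72.9%).

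**Figure D5:**
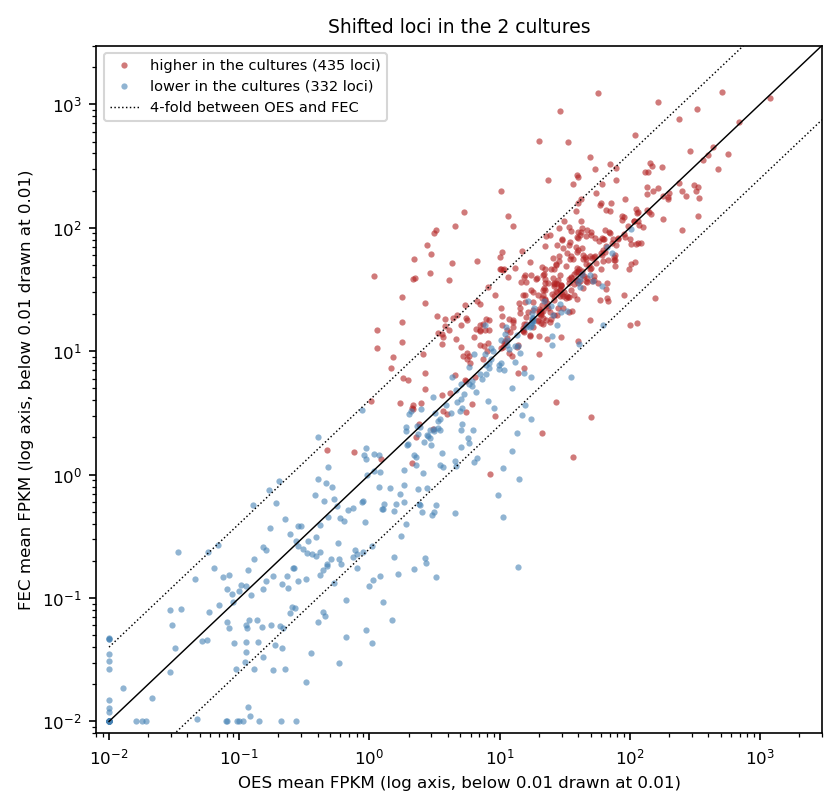
Mean FPKM in FEC (vertical log axis) against mean FPKM in OES (horizontal log axis) at the 435 loci higher (red) and the 332 lower (blue) in both cultures, 1 point per locus. The solid line marks equal means and the dotted lines 4-fold, and more red points lie above the upper dotted line than below the lower one, with the blue points the other way.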

How the data were processed

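The authors sequenced 32 RNA-seq libraries as paired fragments and processed them with Trimmomatic 0.32, TopHat2 2.0.10, Cufflinks 2.2.1 and Cuffdiff 2.2.1, per the labels, against the cassava genome, while the methods of the study give another TopHat2 version. The authors deposited estimated counts of fragments per locus and FPKM values for 38593 loci, beside a signal column of fragments scaled by Cuffdiff, which was not used. Gene names stood at 32732 loci, and the rest, with 1.73% to 5.76% of the fragments, were left out. The deposited estimated counts were rounded to whole numbers, of which 79.6% of the values above 0 were whole already.

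The test covered 27855 named loci whose mean reached 1 FPKM in 1 or more of the 11 tissue types. edgeR 4.0.16 was fitted to all libraries with 11 tissue-type means and TMM factors (0.720 to 1.15), giving a common biological coefficient of variation of 0.264, and 18 contrasts set OES and FEC against each plant tissue. p-values were adjusted by Benjamini-Hochberg over all loci tested and called below 0.05. An SE is a log2 fold change over the root of its F statistic. The mean contrast weighs each tissue type once, on the log2 scale. Lists name members by the words of the study's annotations. Alternatives used DESeq2 1.42.0, limma 3.58.1 on log2(FPKM + 1) or log2(FPKM + 0.1), other filters and scalings, and each library left out.

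The genes named are, among loci with 1 gene name whose libraries do not overlap, the 10 annotated and 2 unannotated loci with the largest gap in log2(FPKM + 1) to the nearest plant tissue, in each direction. Higher loci also had to exceed 4-fold and reach 10 FPKM in both cultures, and lower loci 10 FPKM in every plant tissue. Up to 2 shifted members per list and direction and all embryo regulators were added. The members and lists were chosen with earlier results of these data known. The labels do not say whether libraries of a tissue came from separate plants or cultures, so p-values measure the spread between these libraries. Scripts were tested on simulated data. The list of cyanogenic glucoside genes matched no annotation.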

Additional observations from a re-analysis of the deposited data

Results flagged for a closer look

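Of the loci named in the report, 15 differed between OES and FEC by more than 4-fold in mean FPKM at an adjusted p below 0.05 (edgeR, 1 contrast over all loci tested), so the size of the shift was not the same in both cultures. Values here are log2 fold changes of OES minus FEC. Among the higher loci, 7 were lower in OES: the zinc transporter 1 precursor Manes.07G085500 (-4.88), WOX8 Manes.17G051300 (-3.40), WOX2 Manes.04G033600 (-2.82), the prolyl oligopeptidase Manes.18G007900 (-2.66), the aquaporin-like Manes.02G118300 (-2.35), the histone Manes.03G141500 (-2.27) and nuclear factor Y, subunit B6 Manes.08G068800 (-2.17). The GH3 gene Manes.03G119800 was the only named higher locus with a difference the other way (2.50). Among the lower loci, 7 were higher in OES: the aspartyl protease Manes.04G158400 (4.53), homeobox protein 16 Manes.13G096900 (3.21) and Manes.12G129800 (2.64), the peroxidase Manes.02G182500 (2.95), the Dof-type gene Manes.17G047300 (2.58), the O-fucosyltransferase gene Manes.13G099700 (2.51) and beta-6 tubulin Manes.01G061400 (2.42). Groups of 2 or 3 libraries are too small for a test of single libraries that stand apart.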

How the results depend on the processing

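Without SAM and RAM, 936 loci were shifted higher and 993 lower, of which 392 and 446 were over 4-fold. A rule with fewer tissues to pass favours such a rise. Scaled by library totals alone, 219 were lower. With limma on log2(FPKM + 1), 115 were lower over 4-fold, and the mean contrast gave 1220 higher and 1755 lower. At a minimum of 10 FPKM it gave 1764 higher. The other settings kept these counts within 1.5 times. The difference in loci at or above 1 FPKM between cultures and plant tissues was -258, and 636 once FPKM was rescaled to a sum of 1000000 per library (exact permutation test, p = 0.62 and 0.58). The cause was not tested. With 1 library left out, shifted higher loci ranged from 349 to 474, lower from 235 to 393, those over 4-fold from 171 to 208 higher and from 150 to 204 lower, and mean contrast calls from 2824 to 2910 higher and 2568 to 2769 lower. In all 32 such fits 249 higher and 175 lower loci were shared with the full fit. The difference in fragments taken by the 10 most abundant loci ranged from -2.04 to -1.88 percentage points, and without lateral bud 2 it was -1.92 (exact permutation test, p = 0.073). Of the 32 named shifted loci, 22 kept their call under 6 other settings and in all 32 fits with 1 library left out. With the replicate number as a block, 454 loci were higher and 336 lower, 423 and 319 of them shared with the fit without it. The labels do not say that a number marks a shared source, so the number was not used as a pairing. Deviations from the tissue mean correlated at -0.11 to 0.31 over 155 pairs of the same number (mean 0.03). The mean of -0.015 for the other pairs follows from subtracting tissue means and is no separate comparison. Yet 28 of 32 libraries were nearest to a library of their own number, although other pairs (310) outnumbered same-number pairs (155). Libraries of 1 number thus shared some deviation across tissues, and its source was not tested. The block ended the call of the peroxidase Manes.07G138800 alone among the named loci. Depth limits the lowest loci: at 40 of the 435 higher and 41 of the 332 lower loci no library of the lower side held more than 3 fragments, so their folds are not given.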

Other observations

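The further shifted loci given here were chosen after their values were seen and were not counted as groups. A gene annotated as DEFECTIVE IN MERISTEM SILENCING 3 (Manes.01G245700), which in Arabidopsis acts in RNA-directed DNA methylation, read 1.91 to 2.34 FPKM in OES and 46.4 to 65.9 FPKM in FEC, against at most 0.696 FPKM in a plant library (edgeR, adjusted p = 0.00079). SU(VAR)3-9 homolog 4 (Manes.06G009100), of a family of histone methyltransferases, read 6.54 to 9.47 FPKM in OES and 29.5 to 37.1 FPKM in FEC, against at most 1.59 FPKM (edgeR, adjusted p = 0.00019). Silencing defective 5 (Manes.03G112100) read 13 to 17.3 FPKM in OES and 35.7 to 47.5 FPKM in FEC, against at most 6.38 FPKM (edgeR, adjusted p = 0.0038). At these loci FEC was the higher culture and no library overlapped between the groups.

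A pair of gibberellin enzymes were among the shifted loci. Gibberellin 20 oxidase 2 (Manes.12G157700), a step of synthesis, read 43.7 to 59.1 FPKM in OES and 1.07 to 4.76 FPKM in FEC, against at most 0.872 FPKM in a plant library (edgeR, adjusted p = 0.02). Gibberellin 2-oxidase (Manes.17G070100), which inactivates the hormone, read 96.7 to 108 FPKM in OES and 11.3 to 19.9 FPKM in FEC, against at most 6.62 FPKM (edgeR, adjusted p = 0.011). Among RWP-RK domain genes, a family of plant transcription factors, Manes.02G113900 read 53.4 to 80.2 FPKM in the cultures and at most 18.1 FPKM in the plant libraries (edgeR, adjusted p = 2.4e-05). Manes.02G144400 read 3.37 to 5.74 FPKM in OES, 42.3 to 68.8 FPKM in FEC and at most 0.164 FPKM in a plant library (edgeR, adjusted p = 0.00065).

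A GDSL-like lipase (Manes.18G120800) was among the widest differences between the cultures, at 55.3 to 61.2 FPKM in OES and 1072 to 1346 FPKM in FEC against at most 23.5 FPKM in a plant library (edgeR, adjusted p = 0.0092). Isocitrate lyase (Manes.13G072200), an enzyme of the glyoxylate cycle that turns stored fat into sugar, read 7.47 to 9.12 FPKM in OES and 0.894 to 1.16 FPKM in FEC, against at most 0.167 FPKM (edgeR, adjusted p = 0.011). Phytoene synthase (Manes.02G081700), the entry step of carotenoid synthesis, was lower, at 0.115 to 0.707 FPKM in the cultures and 1.34 to 193 FPKM in the plant libraries (edgeR, adjusted p = 1.4e-05). An invertase and pectin methylesterase inhibitor gene (Manes.06G136000) was listed at 0 FPKM in all 6 culture libraries and at 0.171 to 54.5 FPKM in the plant libraries (edgeR, adjusted p = 0.0071).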
